A study of Mus musculus with 6 samples.

Results

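The epidermal growth factor (EGF) family was followed in the prostate RNA of 6 mice through 10 of the 34745 genes in the deposited table, namely the ligands Egf, Tgfa, Areg, Ereg, Btc, Hbegf and Nrg1 and the receptors Egfr, Erbb2 and Erbb3. These 10 genes were taken by symbol as the classical members of the family, and each symbol matched 1 row of the table. All mice were male C57BL/6 animals that entered the study at 6 to 8 weeks of age. The 3 mice of the T + E2 group carried a subcutaneous slow-release pellet of testosterone (T) and estradiol (E2) for 12 weeks, renewed each month, as a model of benign prostatic hyperplasia. The 3 mice of the CON group had the skin incision and no pellet, so both hormones differ together between the groups and a placebo pellet was not part of the comparison. These 6 mice were set aside for sequencing alone, and the lobes taken were not given in the sources used here.

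EGF family ligands are made as membrane-anchored precursors, are released by metalloproteases of the ADAM family, and act on neighbouring cells. EGF, TGF-alpha, amphiregulin, epiregulin, betacellulin and heparin-binding EGF bind EGFR, whereas neuregulin 1 binds ERBB3 and ERBB4. ERBB2 has no known ligand of its own and works as a partner in dimers, ERBB3 has little kinase activity and passes the signal on through its partner, and the dimers feed the MAPK, PI3K and STAT5 pathways. In the prostate the secretory epithelium releases EGF into the glandular fluid.

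Reads counted on genes totalled 14816146 to 16555549 per mouse, and 3 counts corresponded to 0.181 to 0.202 CPM (counts scaled to a common library total). The prostate label was checked against a list of 5 prostate genes, among them Pbsn, Tgm4 and Hoxb13, all of which were detected in every mouse, with a summed level of 32772 to 45685 CPM in the CON group and 5128 to 7098 CPM in the T + E2 group. In that list the secretory genes Pbsn and Tgm4 had log2 fold changes of -3.29 and -2.91 (edgeR adjusted p = 2.45e-05 and 0.000158), and the other 3 genes did not pass the test. The second mouse of each group stood apart, because genes of the seminal vesicle summed to 10288 CPM in CON 2 and 642 CPM in T + E2 2, against 0.629 to 3.84 CPM in the other 4 mice. The tested members and the pathway counts are therefore also given without these mice.

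Egf was by far the most abundant member on the length-corrected scale (FPKM, counts divided by gene length and library total), and the ligands spanned a much wider range than the receptors. Mean Egf was 60.5 ± 9.48 FPKM in the CON group and 43.6 ± 6.95 FPKM in the T + E2 group (SD, n = 3 each, as for all means that follow). Erbb3 came next with 23.6 ± 0.842 and 18.2 ± 2.62 FPKM, then Erbb2 with 15.6 ± 0.900 and 13.1 ± 1.99 FPKM, and then Egfr with 4.28 ± 0.397 and 5.61 ± 0.668 FPKM. No neighbours among these 4 genes overlapped in either group.

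The other ligands were scarcer than all 3 receptors. Hbegf averaged 3.29 ± 0.434 FPKM in the CON group and 2.15 ± 0.706 FPKM in the T + E2 group, Tgfa 2.06 ± 0.115 and 2.56 ± 0.360 FPKM, and Nrg1 1.10 ± 0.195 and 1.81 ± 0.297 FPKM. In the CON group these 3 ligands stood in that order without overlap on the FPKM of the table, whereas in the T + E2 group Hbegf overlapped with both Tgfa and Nrg1. Areg, with a mean of 0.396 FPKM in the CON group, overlapped there with Btc at 0.270 FPKM, and Ereg was at the bottom in both groups. The table's Nrg1 row implies a length of 2103 bases against 10351 bases for the merged exons of release M21 of the GENCODE annotation, so the Nrg1 level is uncertain (1.45 FPKM over all 6 mice with the table's length and 0.296 with the merged exons). The order of the scarcer ligands turned on these lengths, since with merged exons the CON means were 2.32 FPKM for Tgfa, 1.62 for Hbegf, 0.453 for Btc, 0.396 for Areg and 0.224 for Nrg1.

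**Figure D1:**
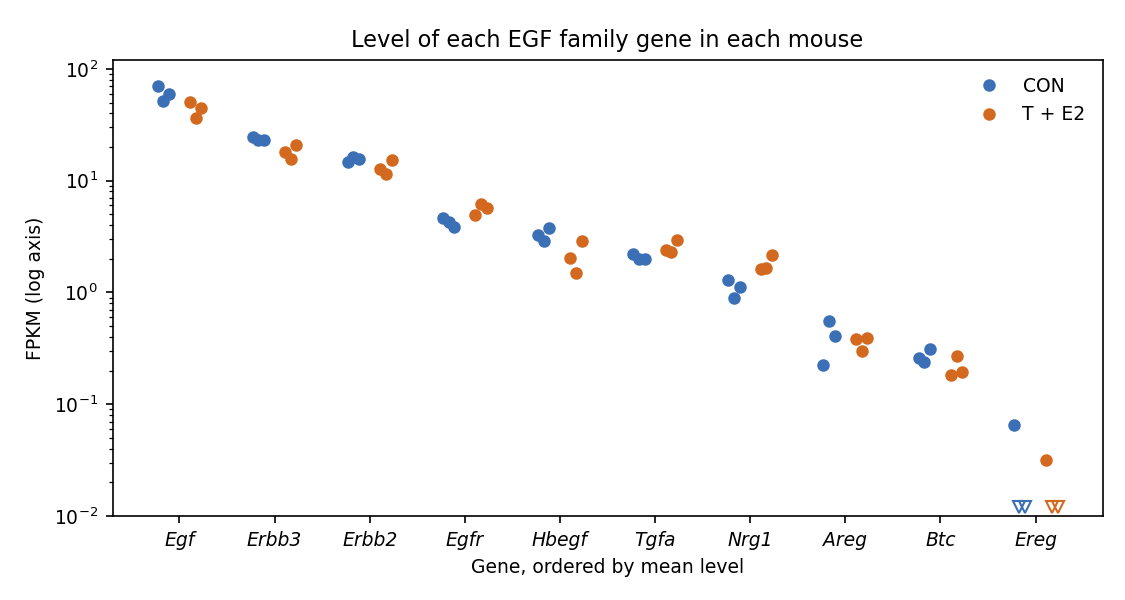
Level of each EGF family gene in each mouse, as FPKM on a log axis, with genes ordered by mean level. Each point is 1 mouse of the CON group (blue) or the T + E2 group (orange), and open triangles at the bottom mark mice in which Ereg was listed at 0. Egf lies highest, at 36.3 to 70.4 FPKM, and Erbb3, Erbb2 and Egfr follow in that order in both groups.

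Of the 10 members, 8 had enough reads to be tested and 1 passed the threshold of an adjusted p under 0.05, namely Egfr, which was higher in the T + E2 group. That is 12.5% of those tested, against 19.6% of all 15580 genes tested and 10.4% called higher. None was a DEG by the stricter rule that also asks for an absolute log2 fold change over 1, which 7.64% of all genes met (4.27% higher and 3.38% lower). The median log2 fold change of the 8 genes was -0.25, with 3 positive and 5 negative values, against -0.002 over all genes, and the median absolute value was 0.39 against 0.26. The values of the groups did not overlap for 4 of the 8 genes, against 40.7% of all genes tested, with the T + E2 group above in 3 (20.0% of all genes) and below in 1 (20.7%). In bulk tissue, fewer cells of a type and less RNA per cell cannot be told apart, and this holds for every value below.

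**Figure D2:**
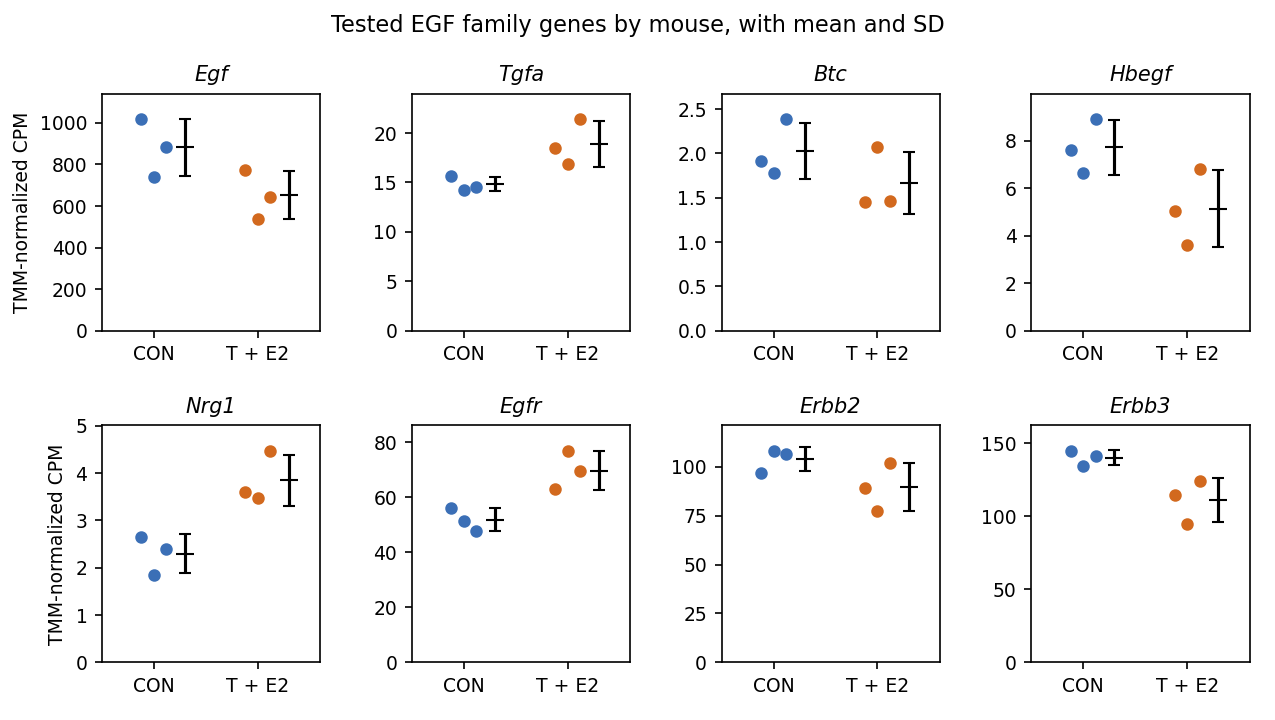
CPM (TMM-normalized) of the 8 tested members, each panel with its own axis starting at 0. Points are single mice, and the bar beside each group is the mean with its SD (n = 3). The groups separate for Tgfa, Nrg1 and Egfr (T + E2 group above) and for Erbb3 (T + E2 group below), and they overlap for Egf, Btc, Hbegf and Erbb2.

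Among the ligands, Egf (ENSMUSG00000028017, chr3:129677565-129755316 of mouse build GRCm38, minus strand) encodes the founding ligand of EGFR. Its promoter is printed because it is the most abundant member. The 250 bases before its start, chr3:129755323-129755572 on the minus strand, come from RefSeq (build GRCm38.p6), and the capitals mark the TATA-like letters TTTAAA, 27 bases before the start.

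Egf promoter: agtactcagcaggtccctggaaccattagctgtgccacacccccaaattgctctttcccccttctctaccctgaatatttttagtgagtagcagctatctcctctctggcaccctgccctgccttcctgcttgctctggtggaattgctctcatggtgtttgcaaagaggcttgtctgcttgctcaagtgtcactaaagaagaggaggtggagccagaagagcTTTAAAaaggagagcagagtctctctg

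That window held 0 CpG pairs, which 7.87% of all 32851 RefSeq promoter windows of this length match, the median being 6. TTTAAA was found on either strand in 12.1% of all windows, and among the members' windows in this one alone. Windows were given for 6 members (Egf with 2, Tgfa, Areg, Btc, Egfr and Erbb2). The other Egf window, chr3:129725087-129725336, held 15 CpG pairs, and 74.6% of all windows held as many or fewer.

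Egf measured 1019, 741.2 and 885.6 CPM in the CON mice, against 774.4, 539.7 and 645.7 CPM in T + E2 mice. The groups overlapped, since T + E2 1 lay above CON 2, and the second mouse was the lowest of its group on both sides. The log2 fold change was -0.43 (SE 0.16, 95% interval -0.81 to -0.05, edgeR adjusted p = 0.104), a ratio of 0.741, so Egf did not pass the test. Like the other intervals in this text, this one is for a single gene and takes no account of the number of genes tested. The secretory genes Pbsn and Tgm4 were also lower in the T + E2 mice, and their part in the Egf value was not tested.

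Tgfa (chr6:86195223-86275719) encodes TGF-alpha, the ligand most alike EGF in receptor use. It measured 15.7, 14.26 and 14.59 CPM in the CON mice, against 18.47, 16.87 and 21.42 CPM in T + E2 mice. Every T + E2 mouse lay above every CON mouse. The log2 fold change of 0.35 (SE 0.12, interval 0.06 to 0.64) did not pass the test (edgeR adjusted p = 0.0877).

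Hbegf (chr18:36504929-36515805) encodes heparin-binding EGF, a ligand kept close to cells by heparan sulfate. It measured 7.62, 6.64 and 8.93 CPM in the CON mice, against 5.05, 3.59 and 6.81 CPM in T + E2 mice. A single crossing made the groups overlap, with T + E2 3 just above CON 2, and the second mouse was again the lowest of each group. The log2 fold change was -0.59 (SE 0.25, interval -1.17 to -0.01, edgeR adjusted p = 0.141).

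Nrg1 (chr8:31818028-31918203 in the table, minus strand) encodes neuregulin 1, the ligand of ERBB3. It rested on few reads, with 40, 28 and 38 counts in the CON mice, against 52, 57 and 67 counts in T + E2 mice, or 2.65, 1.84 and 2.39 CPM against 3.60, 3.47 and 4.47 CPM. All T + E2 mice were above all CON mice, and the log2 fold change of 0.74 was the largest in size of the 8 members tested (SE 0.24, interval 0.20 to 1.29). With an edgeR adjusted p of 0.0609 it did not pass the test. In GENCODE M21 the gene spans chr8:31814551-32884029, far more than the table's row. Gm26578, a noncoding gene on the opposite strand, overlaps that longer span and held 4 to 12 counts per mouse. Whether it overlaps the table's row was not tested.

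The remaining ligands had the fewest reads. Btc (chr5:91357261-91402994), which encodes betacellulin, had 29, 27 and 38 counts in the CON mice, against 21, 34 and 22 in T + E2 mice, and the groups overlapped. Its log2 fold change was -0.28 (SE 0.27, edgeR adjusted p = 0.497), with an interval of -0.90 to 0.34 that spans both directions. Areg (chr5:91139599-91148432), the gene of amphiregulin, had 4, 10 and 8 counts in the CON mice, against 7, 6 and 7 in T + E2 mice. Ereg (chr5:91074622-91093646), the gene of epiregulin, had 4 counts in CON 1, 2 in T + E2 1 and 0 in the other 4 mice. Areg and Ereg were left out by the filter on low counts, and neither was called when fitted without it.

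Among the receptors, Egfr (ENSMUSG00000020122, chr11:16752203-16918158, plus strand) encodes the receptor for all member ligands except neuregulin 1. It is the one member that passed the test, and its promoter is shown for that reason. The 250 bases before the start, chr11:16751953-16752202 on the plus strand (RefSeq, build GRCm38.p6), carry in capitals the letters TGACC, read on either strand, the core of an estrogen response element.

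Egfr promoter: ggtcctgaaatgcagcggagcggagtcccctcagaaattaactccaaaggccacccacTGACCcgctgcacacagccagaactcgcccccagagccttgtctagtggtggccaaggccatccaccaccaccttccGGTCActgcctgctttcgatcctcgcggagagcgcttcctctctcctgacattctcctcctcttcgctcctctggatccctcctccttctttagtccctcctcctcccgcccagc

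The matches lie 192 and 115 bases before the start, and a GC box (GGGCGG, here on the opposite strand and in lower case) lies 9 bases before it. TGACC occurs in 35.2% of all windows and, among the members, in those of Egfr and Btc. GGGCGG occurs in 32.7% of windows and in those of Egfr, Areg and Tgfa. The full palindromic estrogen response element, which contains TGACC, the full androgen response element and its core TGTTCT were searched on both strands and were in none of the members' windows, and TGTTCT was in 16.1% of all windows. These matches describe letters and not binding.

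Egfr measured 56.3, 51.4 and 48.0 CPM in the CON mice, against 62.9, 77.0 and 69.5 CPM in T + E2 mice. Every T + E2 mouse lay above every CON mouse. Egfr rose by a log2 fold change of 0.43 (SE 0.11, interval 0.18 to 0.68, edgeR adjusted p = 0.0288), or 34.6% (interval 13.2 to 60.0%). The call depended on the mice and the method. It was lost without CON 2 (adjusted p = 0.0856), CON 3 (0.0963), T + E2 2 (0.0826) or T + E2 3 (0.0589), and without both mice that held seminal vesicle transcripts, where the log2 fold change was 0.34 and the edgeR adjusted p was 0.181. Over all 15 alternatives the value stayed between 0.32 and 0.50, and 6 passed the test. Egfros, an antisense gene within Egfr, held at most 11 counts in a mouse and 0.642% as many counts as Egfr in all.

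Some markers of other cell types moved in the same mice. Beside the counts below stand the shares over all genes tested, 19.6% called, with 10.4% higher and 9.25% lower. The 3 tested urothelial genes were higher in the T + E2 group, among them Upk1a (log2 fold change 1.80) and Upk2 (2.20). All 4 listed summed to 422 to 642 CPM against 1374 to 1700 CPM, but their levels were far apart. Upk1a measured 274, 503 and 345 CPM in the CON mice. Upk2 measured 0.795, 0.920 and 0.629 CPM there, against 2.70, 4.99 and 3.14 CPM in T + E2 mice. Upk3a, named after its values were seen, had 0 counts in every CON mouse and 5, 99 and 3 in T + E2 mice. The basal epithelial list summed to 155 to 257 CPM against 245 to 313 CPM, with 1 of 4 genes called, and the luminal list to 2500 to 2860 CPM against 3040 to 3054 CPM, with 3 of 5 genes called. Of these Epcam and Cdh1 were higher (log2 fold changes 1.18 and 0.34) and Krt18 was lower (-0.54), the last 2 named after their values were seen. The fibroblast list lay at 1602 to 1730 CPM against 1675 to 2030 CPM with 0 of 6 called, and the smooth muscle list at 3984 to 4905 CPM against 3479 to 3805 CPM with 2 of 5 called, both lower. None of the tested endothelial and leukocyte markers was called, with sums of 70.1 to 99.5 against 88.0 to 113 CPM and 61.2 to 97.2 against 79.7 to 114 CPM. The epididymis list reached at most 1.05 CPM in the CON group and at least 5.11 CPM in every T + E2 mouse, almost all of it from Adam7, with Lcn5, Lcn8 and Lcn9 at 0 in every mouse. The part of these cell types in the Egfr value was not tested.

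The tested genes whose log2 CPM followed Egfr most closely over the 6 mice were Mrc1, the macrophage mannose receptor (Pearson r = 0.995), and Zcchc7 (r = 0.994). Both were higher in the T + E2 group, by 1.14 and 0.38 on the log2 scale (edgeR adjusted p = 0.0135 and 0.0322), and the 6 points share the difference between the groups. They were picked for the highest r over all tested genes, so the size of r is no measure of a link.

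Erbb2 (chr11:98412470-98437716), whose product is the preferred dimer partner of the other receptors, measured 97.0, 108 and 107 CPM in the CON mice, against 89.2, 77.6 and 102 CPM in T + E2 mice. The groups overlapped, and the interval of the log2 fold change of -0.21, from -0.49 to 0.06, spans both directions (SE 0.12, edgeR adjusted p = 0.237). Mien1 overlaps Erbb2 on the opposite strand and held 857 to 1412 counts per mouse. Whether counting used the strand was not given in the sources used here, so how reads in the overlap were counted is not known.

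Erbb3 (chr10:128567523-128589652), the neuregulin receptor, measured 145, 135 and 141 CPM in the CON mice, against 114, 94.6 and 124 CPM in T + E2 mice. All T + E2 mice lay below all CON mice, in the opposite order to Egfr. The log2 fold change was -0.34 (SE 0.11, interval -0.60 to -0.08), and the gene did not pass the test (edgeR adjusted p = 0.0739). Markers of Schwann cells, which use ERBB3, summed to 128 to 165 CPM (CON group) and 87.6 to 116 CPM (T + E2 group). Of these 5 markers 2 were called, both lower, against 9.25% of all genes tested, among them Sox10 (log2 fold change -1.66). Their part in the Erbb3 and Nrg1 values was not tested.

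**Figure D3:**
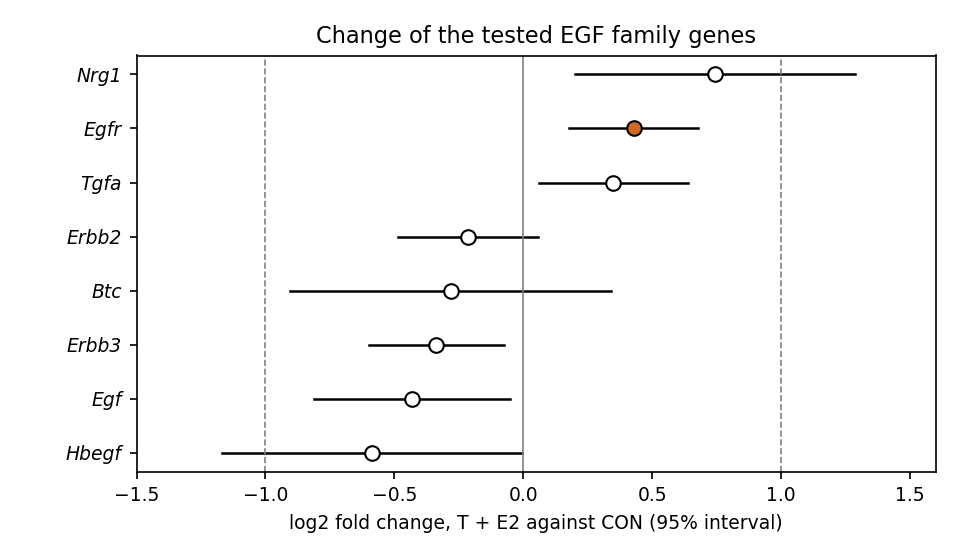
Log2 fold change of each tested member, T + E2 against CON group, with its 95% interval. The filled point is Egfr (0.43), the member with an adjusted p under 0.05, and the dashed lines mark absolute log2 fold changes of 1. Point estimates run from -0.59 for Hbegf to 0.74 for Nrg1.

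Transcripts of the wider EGF pathway were followed in lists by role. Of 69 listed genes 67 could be tested and 18 passed (26.9%, against 19.6% of all genes tested), 9 higher (10.4% of all genes) and 9 lower (9.25%). The log2 fold changes had a median of -0.01, and 4 genes also exceeded an absolute log2 fold change of 1, namely Stat5a and Lrig1 upward and Egr1 and Fos downward. Without the mice that held seminal vesicle transcripts 4 genes passed in each direction of 67 tested, and over all 15646 genes tested in those 4 mice 5.25% were called higher and 3.40% lower.

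Of the remaining family genes, 3 of 5 could be tested and 1 was called, higher. That is 33.3% of those tested, against 19.6% of all genes tested and 10.4% called higher. Nrg2, which encodes neuregulin 2, measured 7.42, 7.10 and 6.16 CPM in the CON mice, against 10.1, 9.56 and 10.3 CPM in T + E2 mice. The groups did not overlap (log2 fold change 0.53, edgeR adjusted p = 0.0362), although the call held in only 4 of 15 alternatives. The others, named after their values were seen, did not pass. Erbb4, the fourth receptor, measured 20.2, 19.7 and 10.9 CPM in the CON mice, against 20.5, 18.4 and 18.0 CPM in T + E2 mice (log2 fold change 0.17, edgeR adjusted p = 0.635). Nrg4 gave 0.00 (adjusted p = 0.998), Nrg3 had 1 to 14 counts per mouse and was not tested, and Epgn had 0 counts in all 6 mice.

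Of 8 genes for ligand-releasing metalloproteases and rhomboid proteins, 2 were called higher and none lower. This share of 25.0% compares with 19.6% of all genes tested and 10.4% called higher. The list had a median log2 fold change of 0.10, with 6 values positive and 2 negative. Rhbdl2, an active rhomboid protease, rose by 0.67 (SE 0.16, edgeR adjusted p = 0.0234), and Adam17, the main sheddase of TGF-alpha and amphiregulin, rose by 0.34 (SE 0.10, adjusted p = 0.0498). These calls held in 9 and 3 of 15 alternatives. Adam10, the main sheddase of EGF and betacellulin and named after its value was seen, gave 0.02 (adjusted p = 0.937).

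Of 16 adaptors and members of the MAPK cascade, 4 were called lower and none higher. This share of 25.0% compares with 19.6% of all genes tested and 9.25% called lower. With 11 values negative and 5 positive, the median log2 fold change was -0.12. Mapk3, which encodes ERK1, measured 273, 260 and 245 CPM in the CON mice, against 178, 155 and 177 CPM in T + E2 mice. The groups were well apart, and the fall of 0.61 on the log2 scale (SE 0.09, edgeR adjusted p = 0.00354) passed in 15 of 15 alternatives. The docking protein gene Gab1 (log2 fold change -0.46, adjusted p = 0.0473) and the adaptor gene Shc1 (-0.31, adjusted p = 0.0366) each kept the call in 6 of 15.

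Of 15 genes of the PI3K, PLC and STAT branches, 3 were called higher and 2 lower. This share of 33.3% compares with 19.6% of all genes tested, 10.4% higher and 9.25% lower. Signs were mixed, with 9 positive and 6 negative log2 fold changes and a median of 0.03. Stat5a, a transcription factor activated by cytokine receptors as well as by ErbB receptors, showed the clearest difference. It measured 351, 299 and 357 CPM in the CON mice, against 980, 780 and 804 CPM in T + E2 mice. No mouse came near the other group, and the log2 fold change was 1.35 (SE 0.13, edgeR adjusted p = 0.000371). Its relative Stat5b measured 90.8, 85.0 and 88.3 CPM against 186, 156 and 163 CPM (log2 fold change 0.94, SE 0.10, adjusted p = 0.000588). Both passed in 15 of 15 alternatives. Pik3cb, a catalytic subunit of PI3K, fell by 0.64 on the log2 scale (adjusted p = 0.0401), a call that held in 9 of 15 alternatives. The other called genes, named after their values were seen, were Pik3r1 (0.33, adjusted p = 0.0446) and Akt1 (-0.33, adjusted p = 0.0492).

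Of 14 inhibitors of the receptors and of their signal, 2 were called higher and none lower. That is 14.3%, against 19.6% of all genes tested and 10.4% called higher. Across the list 6 log2 fold changes were positive and 8 negative, with a median of -0.005. Lrig1, a membrane protein that promotes degradation of ErbB receptors, measured 18.3, 17.3 and 14.8 CPM in the CON mice, against 31.6, 38.8 and 30.6 CPM in T + E2 mice. The T + E2 values were all well above the CON values (log2 fold change 1.01, SE 0.13, edgeR adjusted p = 0.00178). Errfi1, which encodes a direct inhibitor of the EGFR kinase, measured 61.3, 53.0 and 51.9 CPM against 85.0, 120 and 112 CPM. It rose by 0.93 (SE 0.14, adjusted p = 0.00343). By adjusted p both genes passed in 15 of 15 alternatives. The Lrig1 log2 fold change ran from 0.70 to 1.07 over these, so in some it lay under 1.

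Of 11 transcripts commonly induced by ERK signalling, 1 was called higher and 3 lower. This share of 36.4% compares with 19.6% of all genes tested, 10.4% higher and 9.25% lower. The median log2 fold change was -0.34. Egr1, an immediate early transcription factor, measured 44.0, 46.5 and 37.9 CPM in the CON mice, against 12.5, 13.0 and 18.0 CPM in T + E2 mice. The highest T + E2 mouse was far below the lowest CON mouse (log2 fold change -1.56, SE 0.16, edgeR adjusted p = 0.000526). Fos, a subunit of the AP-1 factor, measured 18.2, 25.6 and 16.0 CPM against 4.36, 5.18 and 7.67 CPM. It fell by 1.79 on the log2 scale (SE 0.25, adjusted p = 0.00243). Egr1 and Fos passed in 15 of 15 alternatives, and Dusp5, a phosphatase acting on ERK, which fell by 0.80 (adjusted p = 0.0149), passed in 13. In all, 9 of the 11 log2 fold changes were negative. ERK activity itself was not measured, and its part in these values was not tested. The called gene that rose was Ier3 (0.43, adjusted p = 0.0392), and the ERK phosphatase gene Dusp6 gave -0.02 (adjusted p = 0.923), both named after their values were seen.

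**Figure D4:**
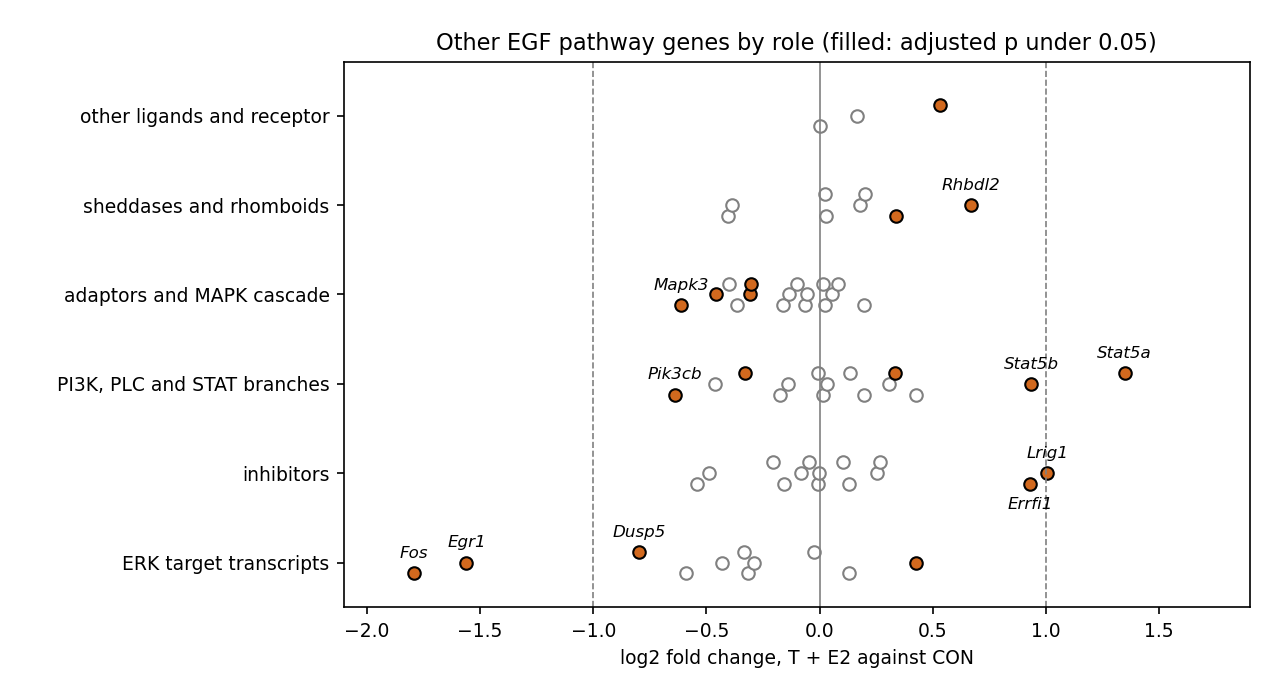
Log2 fold change (T + E2 against CON group) of the 67 tested genes of the wider pathway, 1 point per gene, in rows by role. Filled points have an adjusted p under 0.05, dashed lines mark absolute log2 fold changes of 1, and called genes with larger changes are named. Stat5a (1.35) lies farthest to the right and Fos (-1.79) farthest to the left.

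Egfr was the member whose call moved most between analyses, and the other members mostly kept their side of the threshold. Egf passed in 2 of 15 alternatives, with log2 fold changes from -0.57 to -0.31, and Nrg1 and Erbb3 passed in 1 each. Tgfa, Hbegf and Erbb2 passed in 0 of 15 and Btc in 0 of the 14 that could be fitted. No member changed the sign of its log2 fold change in any alternative. Without CON 2 and T + E2 2 the log2 fold change was -0.42 for Egf, 0.40 for Tgfa and -0.56 for Btc. In the same fit it was -0.48 for Hbegf, 0.68 for Nrg1, -0.09 for Erbb2 and -0.26 for Erbb3. None of these members passed the test there.

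**Figure D5:**
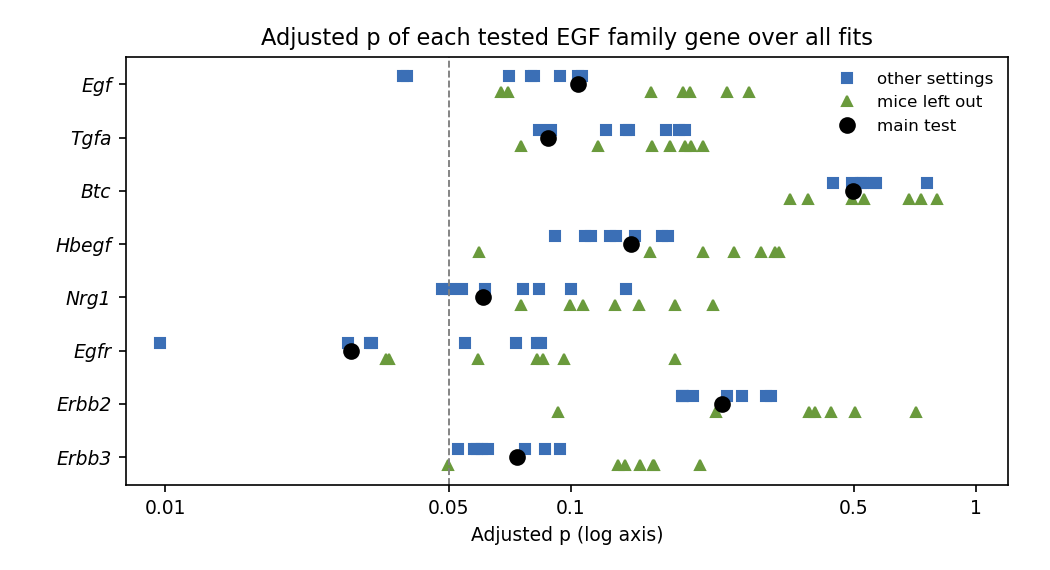
Adjusted p of each tested member on a log axis, in the main test (circle), in 8 other settings (squares) and in 7 fits with mice left out (triangles). The dashed line is the threshold of 0.05. Egfr spans 0.00973 to 0.181 across it, whereas Tgfa, Btc, Hbegf and Erbb2 stay to its right in every fit.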

How the data were processed

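Total RNA of 6 prostates was sequenced as paired-end TruSeq libraries. The authors deposited whole-number read counts per gene, without normalization, and FPKM values, which the authors computed from the counts, gene length and library total. The submitters' processing notes name TopHat, Bowtie2 and HTSeq without versions; the counting strand, build and annotation were not given in the sources used here. Of the table's identifiers, 34344 occur in GENCODE M21 (GRCm38).

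Counts were tested in edgeR 4.0.16 (R 4.3.3) by the quasi-likelihood method with TMM scaling and filterByExpr (minimum count 10, total 15), with p-values adjusted by Benjamini-Hochberg over 15580 genes. A gene was called at an adjusted p under 0.05. The SE was derived as log2 fold change over the square root of F. TMM factors were 0.956 to 1.03 and the biological coefficient of variation was 18.0%. Limits of detection cover counting error only. DESeq2 1.42.0, limma 3.58.1 on log2(FPKM + 0.1) and log2(FPKM + 1), other scalings and filters, a replicate block and each mouse left out were alternatives. The scripts were tested on simulated data.

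Members and lists were chosen with earlier results of these data known. All members were named, and of the pathway lists the genes past both thresholds and the 3 called genes with the largest change in each; markers were named where past both thresholds, or to check the tissue. The 2 genes correlating best with each called member were also named. Some listed genes are not reported here. Mice within a group differed beyond sampling noise (chi-square 16.7 to 36.4 per degree of freedom). Figures used matplotlib 3.10.9 in Python 3.11.15.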

Additional observations from a re-analysis of the deposited data

How the results depend on the processing

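The number of members called was 1, and it became 0 with total-count scaling or limma on log2(FPKM + 0.1), 2 with DESeq2, 0 to 1 with a mouse left out, and 0 without CON 2 and T + E2 2 together, an alternative chosen after seeing the data. Egfr fell below the threshold, with its direction kept, under total-count scaling (log2 fold change 0.39, edgeR adjusted p = 0.055), limma on log2(FPKM + 0.1) (0.38, 0.0826) and on log2(FPKM + 1) (0.32, 0.0843), the replicate block (0.43, 0.0732) and without both second mice (0.34, 0.181). With 1 mouse left out it ranged from 0.35 to 0.50. Egf passed with DESeq2 (-0.43, 0.0386) and with the block (-0.44, 0.0394), Nrg1 with limma on log2(FPKM + 1) (0.42, 0.0482), and Erbb3, which ranged from -0.42 to -0.23, without T + E2 3 (adjusted p = 0.0498). Pathway genes called higher numbered 9, and 5 with total-count scaling, 5 without a filter, 4 with the block, 4 to 7 with a mouse left out and 4 without both second mice. Those called lower numbered 9, and 5 with the block, 3 to 6 with a mouse left out and 4 without both second mice. Over all genes, 1620 were called higher (1095 to 1474 with a mouse left out, 822 without both second mice) and 1441 lower (945 with the block, 834 to 1267 with a mouse left out, 532 without both second mice), and 1191 passed both thresholds (561 with limma on log2(FPKM + 1)). With merged exon lengths, also chosen after seeing the data, mean levels over 6 mice moved from 52.1 to 68.1 FPKM for Egf, 0.243 to 0.408 for Btc, 2.72 to 1.33 for Hbegf, 1.45 to 0.296 for Nrg1 and 14.3 to 18.6 for Erbb2. The shifts in level with merged exons come from the length alone, since the counts were the same. The cause of the other changes was not tested, except that fits without mice have fewer samples. Replicate numbers name different mice, the deviations of same-numbered mice correlated at -0.0516 to 0.0463, and 1 of 6 mice correlated best with its own number, so the block pairs mice by number alone. Without the filter Areg and Ereg could be fitted (-0.12, adjusted p = 0.906, and -0.87, adjusted p = 0.774). With 3 mice a group and 4 to 10 Areg counts per mouse, depth limits the scarce ligands.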

Other observations

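The make-up of the family within each mouse was looked at after the members' values had been seen, as shares of summed FPKM. Egf made up 90.6, 88.7 and 88.7% of the FPKM of the 7 ligands in the CON mice, against 88.2, 85.8 and 83.7% in T + E2 mice, so every T + E2 mouse was below every CON mouse. The means were 89.4% ± 1.10 and 85.9% ± 2.26 (SD, n = 3 each, exact two-sided permutation p = 0.1, the smallest that 3 against 3 mice can give). Egfr made up 10.7, 9.83 and 9.06% of the FPKM of the 3 receptors in the CON mice, against 13.7, 18.7 and 13.7% in T + E2 mice, again without overlap (exact permutation p = 0.1). The share of Erbb3 averaged 54.3% ± 1.70 and 49.2% ± 2.02 (exact permutation p = 0.1), and that of Erbb2 35.9% ± 2.22 and 35.4% ± 1.11 (exact permutation p = 0.7). These 4 shares are not independent of each other, none can pass a threshold of 0.05 with this number of mice, and they use the gene lengths of the deposited table.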
